A study of Caenorhabditis elegans with 9 samples.

Results

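The genes described here are the beta-catenin genes of *C. elegans*, *bar-1*, *hmp-2*, *wrm-1* and *sys-1*, together with *pop-1*, the only TCF/LEF type transcription factor of the worm. They were chosen by name, not by any measured value, and their NCBI Gene numbers were looked up in the RefSeq gene table of WBcel235. All 5 were found among the 45495 genes of the deposited table. Their numbers there are 180982 for *bar-1*, 173338 for *hmp-2*, 175802 for *wrm-1*, 172859 for *sys-1* and 171849 for *pop-1*. The values come from 1 RNA-seq library, replicate 1 of young stage ADF, made from whole wild-type (WT) adult hermaphrodites kept at 20°C and given alternate day fasting for 7 days. By their labels, the 9 libraries of the study form the groups young stage ADF, middle stage ADF and control, with 3 libraries each. Middle stage ADF is the same regimen given for 7 days at a later adult stage, control worms received no ADF, and the labels give every group as WT adult hermaphrodites with M9 as the treatment. The other 8 libraries were not analysed here. The effect of ADF on these genes could therefore not be compared between groups, and no value below carries an SD or a p-value.

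A beta-catenin can serve as a structural part of cell junctions or carry a Wnt signal into the nucleus, where it acts on genes through a TCF factor. Most animals use a single beta-catenin for both tasks, whereas the worm divides them. HMP-2 links cadherin to alpha-catenin at adherens junctions. BAR-1 works in the pathway that is built like the canonical one, in which an Axin and APC complex marks beta-catenin for degradation, and it serves vulval fate and the migration of Q neuroblasts. WRM-1 and SYS-1 belong to the Wnt/beta-catenin asymmetry pathway of dividing cells in embryo, seam and gonad. In that pathway WRM-1 and the kinase LIT-1 lead to the export of POP-1 from the nucleus, while SYS-1 is the coactivator that binds the POP-1 left behind.

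In the library of young stage ADF, the 5 genes stood at 3 levels. *wrm-1*, *hmp-2* and *pop-1* lay close together between 30.9 and 37 FPKM, *sys-1* stood at 14.4 FPKM, and *bar-1* was far lower at 1.91 FPKM. FPKM divides the fragments of a gene by its length and by the size of the library. Levels of different genes can thus be set side by side, but they depend on the length used. The fragments behind each FPKM were recovered from the values themselves, and the 95% Clopper-Pearson intervals given here rest on them. These intervals cover counting error only and say nothing about the spread between worm cultures.

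The level of *wrm-1*, the beta-catenin that partners LIT-1, was 37 FPKM (95% interval 35.3 to 38.7) on 1884 fragments. *hmp-2*, the junctional beta-catenin, had 33.5 FPKM (31.7 to 35.3) on 1379 fragments. The TCF gene *pop-1* had 30.9 FPKM (29.4 to 32.6) on 1448 fragments. These 3 genes differed from each other by at most 1.20 times. *sys-1*, the coactivator of POP-1, had 14.4 FPKM (13.4 to 15.5) on 759 fragments. *bar-1* had 1.91 FPKM (1.53 to 2.34) on 90 fragments, well above the 0.0636 FPKM that 3 fragments, the limit a count of 0 allows, would give for its length.

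**Figure D1:**
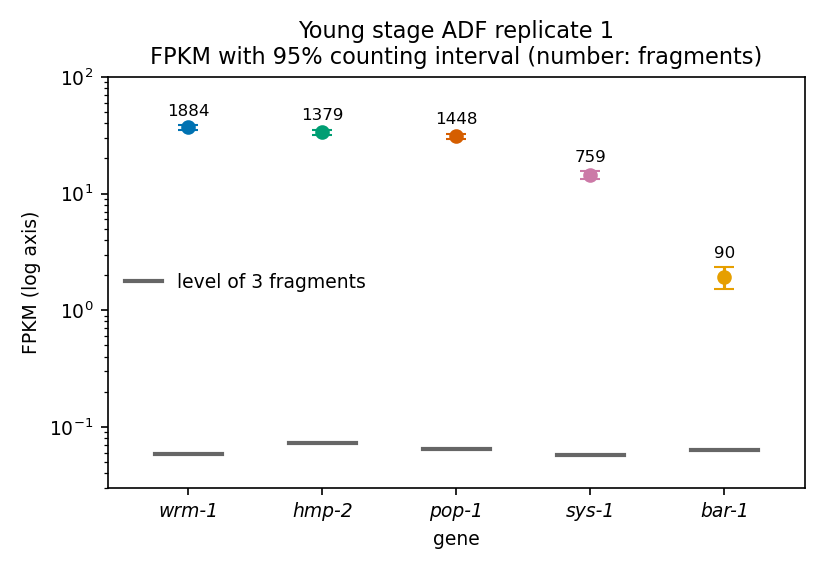
FPKM of the 5 genes in young stage ADF replicate 1 on a log axis, as points with 95% Clopper-Pearson counting intervals and the number of fragments above each point; the grey bars mark the level that 3 fragments would give. *wrm-1*, *hmp-2* and *pop-1* sit between 30.9 and 37 FPKM, *sys-1* at 14.4 and *bar-1* at 1.91.

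Of the 10 pairs among the 5 genes, none had an interval of the ratio that held 1 at the lengths behind the deposited FPKM. These 95% intervals were not adjusted for the number of pairs. The smallest step was that of *hmp-2* over *pop-1*, with a ratio of 1.08 (95% interval 1.004 to 1.17). *wrm-1* exceeded *hmp-2* by a ratio of 1.11 (1.03 to 1.19). With no other library of the group at hand, the order of these 3 genes may lie within the spread between replicates, which was not measured. The lower steps were wider, since *pop-1* was 2.14 times as high as *sys-1* (1.96 to 2.34) and *sys-1* was 7.57 times as high as *bar-1* (6.08 to 9.53).

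Read against the TCF factor, *wrm-1* reached 1.20 times the FPKM of *pop-1* (1.12 to 1.28) and *sys-1* 0.467 times (0.427 to 0.510). *bar-1* reached 0.0617 times (0.0493 to 0.0763). The RNA of the coactivator *sys-1* was thus less abundant than that of the factor it binds, and the RNA of *wrm-1* was 2.56 times as abundant as that of *sys-1* (2.35 to 2.79). Added together, the 4 beta-catenin genes held 86.8 FPKM on 4112 fragments. *wrm-1* made up 42.6% of this sum, *hmp-2* 38.5%, *sys-1* 16.6% and *bar-1* 2.20%. On fragments alone, *bar-1* held 2.19% of the 4112 (95% interval 1.76% to 2.68%). All 5 genes together took 0.0305% of the library total of 18205113 fragments.

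Within the 11915 genes that reached 1 FPKM, *wrm-1* stood at a percentile of 66.5, so that this share of them was lower, *hmp-2* at 64.6 and *pop-1* at 63.1. *sys-1* lay near the middle of the expressed genes, at a percentile of 49.2, and *bar-1* near the bottom at 12.3 (counting interval 8.27 to 15.8). The median over all 19959 protein-coding genes, those at 0 included, was 1.93 FPKM, close to the level of *bar-1*. On the log2(FPKM + 1) scale that the study used for its heatmaps, the levels were 5.25 for *wrm-1*, 5.11 for *hmp-2*, 4.997 for *pop-1*, 3.95 for *sys-1* and 1.54 for *bar-1*.

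**Figure D2:**
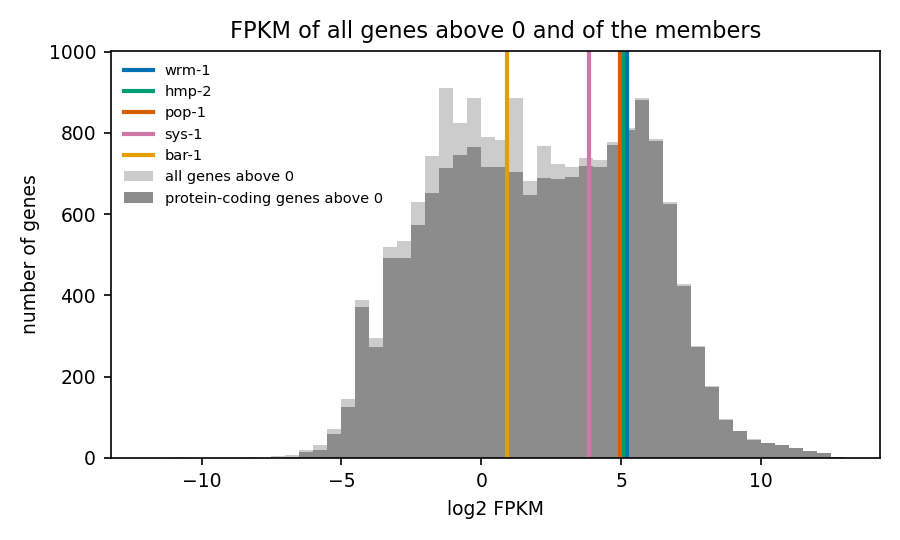
Number of genes by log2 FPKM in steps of 0.5, for all genes above 0 (light) and protein-coding genes above 0 (dark) in young stage ADF replicate 1; vertical lines mark the 5 genes. The lines of *pop-1*, *hmp-2* and *wrm-1* fall side by side at log2 values from 4.95 to 5.21, with *sys-1* at 3.85 and *bar-1* at 0.93.

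The genes differ in structure, which bears on how the counts turn into levels. *bar-1* lies on the minus strand of chromosome X of WBcel235, from 7166005 to 7170625, with 1 annotated transcript of 17 exons that encodes 811 amino acids. *wrm-1* is encoded by the plus strand of chromosome III, between 5722850 and 5727115, and its 2 transcripts encode 796 and 742 amino acids. *hmp-2*, on the plus strand of chromosome I from 14738882 to 14742671, has 2 transcripts that encode 678 and 704 amino acids. *sys-1* lies on the minus strand of the same chromosome, from 9980063 to 9984794. Its 3 transcripts encode 811, 239 and 678 amino acids, and their exons merge into 10 segments. A single FPKM is given per gene, so the transcripts of *wrm-1*, *hmp-2* and *sys-1* could not be told apart.

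*pop-1* has the longest span of the 5 genes. It runs over 8069 bases on the minus strand of chromosome I, from 2822243 to 2830311, in 4 exons with a longest intron of 3050 bases. Its coding part, for 438 amino acids, fills 51.3% of the 2560 exon bases, and the coding sequence ends at 2823471, stop codon not counted, so that most of the remainder is the 3′ untranslated region. In the beta-catenin genes, coding sequence fills between 84.7% (*sys-1*) and 93.9% (*bar-1*) of the exon bases.

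**Figure D3:**
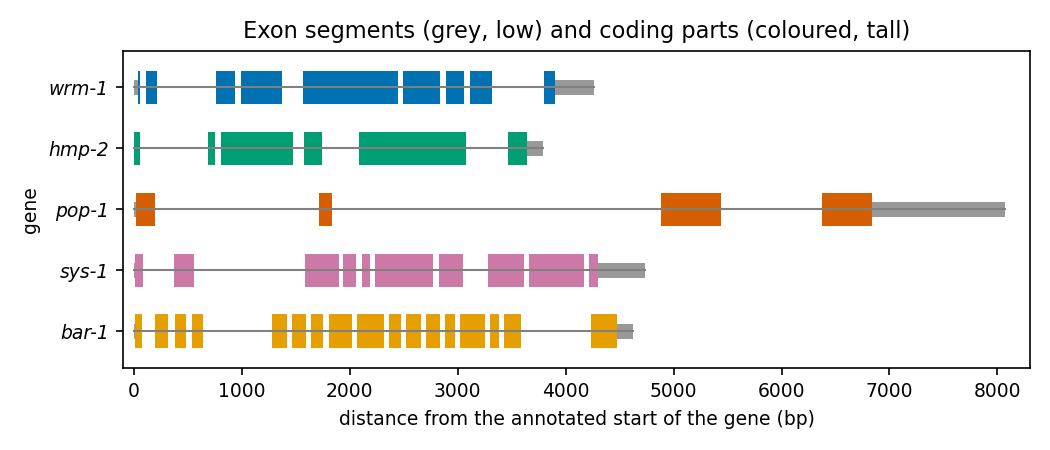
Exon maps of the 5 genes from Ensembl release 115, drawn to scale by distance from the annotated gene start in base pairs, with exon segments in grey and their coding parts coloured and taller. *pop-1* combines a long grey end with introns of up to 3050 bases, whereas *bar-1* is cut into 17 short exons.

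Which gene stood first depended on the length used. When the fragments were divided by the longest coding length in place of the length behind the deposited FPKM, *pop-1* came to 60.5 and passed *wrm-1* at 43.3 and *hmp-2* at 35.9. *sys-1* then stood at 17.1 and *bar-1* at 2.03, so that both kept their places. On this scale the ratio of *wrm-1* to *pop-1* was 0.716 (95% interval 0.668 to 0.767) and that of *sys-1* to *pop-1* was 0.283 (0.259 to 0.309). *sys-1* and *bar-1* were below *pop-1* on either length.

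**Figure D4:**
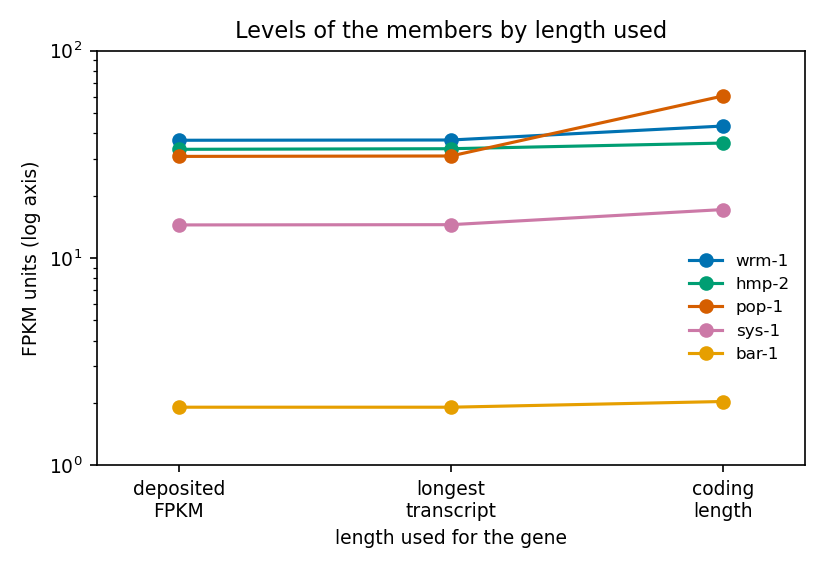
Levels of the 5 genes in young stage ADF replicate 1, in FPKM units on a log axis, with the length behind the deposited FPKM, the longest annotated transcript or the longest coding length as divisor. *pop-1* moves to 60.5 with the coding length and passes *wrm-1* and *hmp-2*, while *sys-1* and *bar-1* keep their places.

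Overlap with other genes touched few bases. The last exon of *bar-1* shares 17 bases with *pgp-10*, an ABC transporter gene on the opposite strand, which had 1.27 FPKM. The 3′ untranslated region of *pop-1* holds all 100 bases of the noncoding RNA gene W03D8.13 on the same strand, which was listed at 0. W10C8.17, a small nucleolar RNA gene within an intron of *pop-1*, had 0.288 FPKM and shares no exon base with it.

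The level of *hmp-2* can be set beside the genes of the junction in which its protein works. The junction list held 8 genes, all at an FPKM of at least 1, with a median of 15.0 FPKM. Of all 19959 protein-coding genes, 56.9% reached 1 FPKM. *hmp-1*, the alpha-catenin gene, was the highest of the junction list at 36.7 FPKM, and *hmp-2* had 0.911 times its level (95% interval 0.854 to 0.971). *hmr-1*, which encodes the classical cadherin that binds HMP-2, had 22.3 FPKM, and *hmp-2* exceeded it 1.50 times (1.41 to 1.60). *jac-1*, the p120 catenin gene, was the lowest at 8.82 FPKM. At the lengths behind the deposited FPKM, *hmp-1* and *hmp-2* were thus closer to each other than either was to *hmr-1* or *jac-1*. These lengths differ, with 9945 bases for *hmr-1*, 4495 for *hmp-1* and 2264 for *hmp-2*. Other lengths were not tried for *hmr-1*, *hmp-1* and *jac-1*, so this order may depend on the length used. The other genes of apical junctions and their regulators lay between 12.3 FPKM for *srgp-1* and 18.3 FPKM for *dlg-1*, a scaffold protein.

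For *wrm-1*, the partner kinase is *lit-1*, a Nemo-like kinase, which had 24.96 FPKM on 1707 fragments. That count rests on a length of 3756 bases in place of the annotated 3422, so it is less firm than those of the 5 genes. *wrm-1* exceeded *lit-1* 1.48 times (95% interval 1.39 to 1.58). *mom-4*, the MAP kinase kinase kinase that activates LIT-1, had 33.5 FPKM, and *wrm-1* was 1.10 times as high (1.03 to 1.19). *tap-1*, which encodes a binding partner of MOM-4, was lowest of this list at 10.7 FPKM. The genes whose products carry POP-1 out of the nucleus were far above *pop-1* itself. *par-5*, a 14-3-3 protein, had 1274 FPKM and *xpo-1*, the exportin, 104 FPKM, and both act on many other proteins. For *par-5* and *tap-1* no whole number of fragments was found near the annotated length, so these values carry no interval.

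The genes of the destruction complex, which degrades beta-catenin, covered a wide range. *kin-19*, casein kinase 1 alpha, had 155 FPKM, *gsk-3* 37.5 FPKM and *apr-1*, the APC gene, 32.9 FPKM. The Axin gene *pry-1* was lower at 6.50 FPKM and its relative *axl-1* was lowest at 0.541 FPKM on 15 fragments. *bar-1*, the beta-catenin that this complex controls, reached 0.293 times the level of *pry-1* (95% interval 0.227 to 0.376) and 0.0580 times that of *apr-1* (0.0465 to 0.0716). APR-1 and KIN-19 also act on SYS-1, and *sys-1* reached 0.439 times the level of *apr-1* (0.404 to 0.477). Among the kinases and scaffolds of the complex, 4 of 5 genes had an FPKM of at least 1, against 56.9% of all protein-coding genes.

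The cofactors through which POP-1 represses or activates genes were measured as well. *unc-37*, the Groucho corepressor, had 73.9 FPKM and the histone deacetylase gene *hda-1* had 134 FPKM, so that *pop-1* reached 0.418 times (95% interval 0.392 to 0.446) and 0.232 times (0.218 to 0.246) their levels. *cbp-1*, the acetyltransferase of the p300/CBP family, was at 33.4 FPKM, against which *pop-1* had 0.926 times the level (0.872 to 0.983). The Mediator kinase module genes *let-19* and *dpy-22* were lower than *pop-1*, at 7.44 and 6.84 FPKM.

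The 8 genes known as targets of POP-1 with a beta-catenin had a median of 1.66 FPKM, near the median of 1.93 FPKM over all protein-coding genes. Of the 8, 6 had an FPKM of at least 1 (75%), against 56.9% of all protein-coding genes. *egl-18*, a GATA factor of seam cells, was the highest at 18.5 FPKM. The Hox genes *lin-39* and *mab-5*, which BAR-1 acts on in vulval precursors and Q neuroblasts, had 6.14 FPKM and 2.18 FPKM. *ceh-22*, a gonadal target of SYS-1 and POP-1, had 0.232 FPKM on 10 fragments, and *psa-3* had 1.14 FPKM on 25 fragments (95% interval 0.739 to 1.69). The endoderm genes *end-1* and *end-3*, which POP-1 controls in the early embryo, had 0.733 FPKM on 10 fragments and 1.08 FPKM on 17 fragments. The intervals of *psa-3*, *end-1* and *end-3* all hold 1 FPKM, so the side of the threshold on which they fall was not settled at this depth.

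BAR-1 can also bind DAF-16, the FOXO factor of insulin signalling. *daf-16* had 33.0 FPKM and its target *sod-3*, a superoxide dismutase gene, 8.38 FPKM, while *bar-1* reached 0.0577 times the level of *daf-16* (95% interval 0.0462 to 0.0713).

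**Figure D5:**
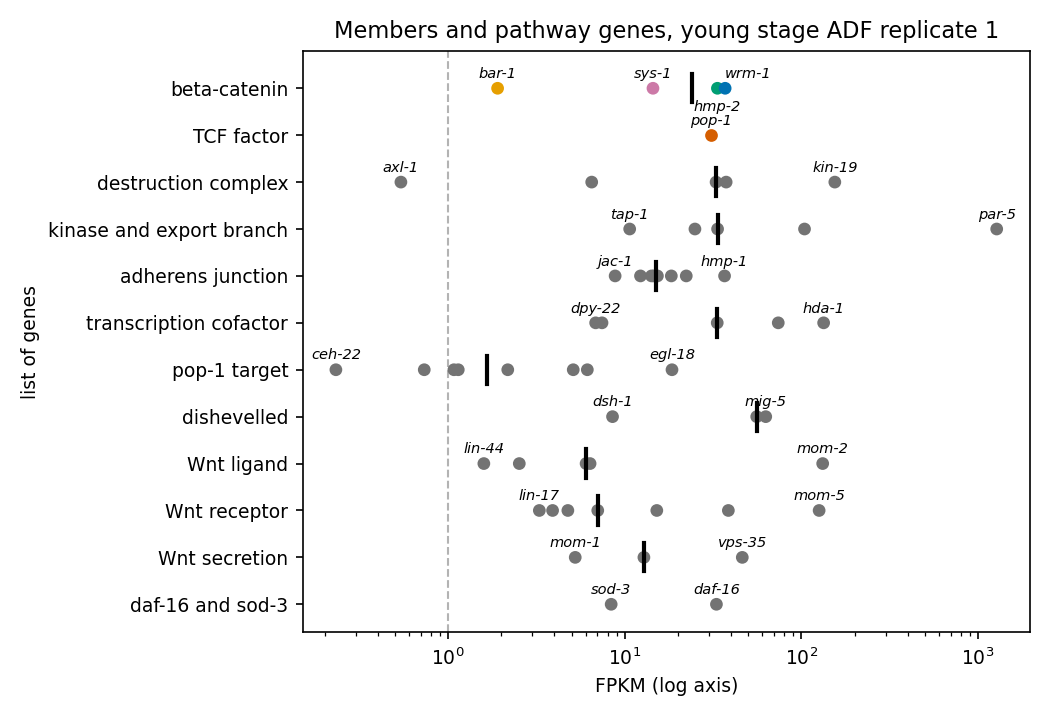
FPKM of the 5 genes (coloured) and of 51 pathway genes (grey) by list in young stage ADF replicate 1, on a log axis; black bars are the medians of lists with 3 or more genes, the dashed line is 1 FPKM, and the lowest and highest gene of each list is named. *bar-1* lies near the low end of the pathway, while *wrm-1*, *hmp-2* and *pop-1* lie near the medians of the destruction complex and cofactor lists.

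Among the 51 other pathway genes of these lists, whose median was 12.8 FPKM, 12 were above *wrm-1*, 14 above *hmp-2*, 17 above *pop-1*, 24 above *sys-1* and 45 above *bar-1*. *bar-1* was in the range of the least abundant Wnt ligand genes, with a ratio of 1.20 to *lin-44* (95% interval 0.816 to 1.78) and of 0.754 to *egl-20* (0.556 to 1.02). Its ratio to the target *mab-5* was 0.876 (0.604 to 1.29). These 3 intervals hold 1, so no difference was detectable at this depth, which does not show that the levels are equal. *mom-2*, the ligand of early embryonic cells, and the Frizzled gene *mom-5* were at 132 FPKM and 126 FPKM, above all 5 genes. The dishevelled genes *dsh-2* and *mig-5*, which relay Frizzled signals, had 55.8 FPKM and 62.8 FPKM, against 8.53 FPKM for *dsh-1*. Among the other receptor genes, *lin-17*, a Frizzled, was lowest at 3.29 FPKM, again with no interval. The genes for Wnt secretion ranged from 5.25 FPKM for *mom-1*, the Porcupine acyltransferase, to 46.3 FPKM for *vps-35*, a retromer subunit.

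Whole worms were sequenced, so that each level sums over all tissues and any embryos or larvae held inside the worms. The paper reports that eggs hatched inside worms given young stage ADF. Whether this library held such larvae was not tested. Fewer cells of a type cannot be told apart from less RNA per cell. Defining genes of the tissues of an adult hermaphrodite were present. The yolk genes *vit-2*, *vit-5* and *vit-6* had 913 to 1363 FPKM, the germline genes *gld-1*, *glp-1* and *pgl-1* 57.9 to 220 FPKM, the oocyte genes *oma-1* and *rme-2* 256 and 318 FPKM, and the adult cuticle collagen gene *col-19* 691 FPKM. The body wall muscle myosin genes *unc-54* and *myo-3* had 46.4 and 8.54 FPKM. The 2 markers of adult hypodermis differed widely, since the collagen gene *rol-6* had 6.05 FPKM against 691 FPKM for *col-19*. The neuronal genes *rab-3* and *unc-119* had 5.40 and 22.3 FPKM, and 1.95 FPKM was measured for *myo-2*, the myosin of pharyngeal muscle. *bar-1* had 0.977 times the level of *myo-2* (95% interval 0.757 to 1.25). Genes switched on in the early embryo ranged from 0.209 FPKM for *med-1*, on 2 fragments, to 4.01 FPKM for *pes-1*. How much each tissue contributes to the levels of the 5 genes was not tested.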

How the data were processed

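The authors deposited FPKM values. Their methods name HISAT2 with WBcel235 and Ballgown, while the submitters' processing notes list Bowtie 0.12.2 and StringTie. The gene annotation is not given in the sources used here. The methods name a stranded KAPA kit and the labels a TruSeq kit, so whether strand was used is not settled. Of 45519 entries, 24 name no gene and were dropped (0.103% of all FPKM). Of the remaining 45495, 44752 matched RefSeq, and 42107 matched Ensembl release 115 by symbol.

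The library total was estimated from 10799 protein-coding genes with 1 transcript as the value that turns FPKM times exon length into whole fragments. It came to 18205113. Of the 4987 such genes under 40 fragments, 80.9% came within 0.02 of whole numbers, compared with 4.42% after the lengths were shuffled. For each named gene, the length closest to the annotated one, within 10%, that gave a whole number within 0.0001 was kept. It was the annotated length for *bar-1*, *hmp-2* and *sys-1*, 2797 in place of 2789 bases for *wrm-1*, and 2572 in place of 2560 bases for *pop-1*. For *bar-1*, 3 lengths were possible. The recovery was tested on simulated data whose length shifts were smaller than those of some named genes, such as *lit-1* (3756 in place of 3422 bases). That test does not cover such genes. Exact Clopper-Pearson intervals at 95% cover counting error only. Ratios use the exact binomial interval of both genes' fragments, scaled by length.

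The genes and lists were chosen with earlier results of these data known, although no measured value was used to pick the 5 genes. All 5 members are named, and from each list the highest and lowest gene, genes at 3 or fewer fragments and other genes of the lists. Alternatives were the TPM scale, other gene lengths, other sets of ranked genes and other thresholds. No genome sequence was used here. Scripts ran under Python 3.11.15 with scipy 1.17.1, numpy 2.4.6, matplotlib 3.10.9 and pandas 2.3.3.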

Additional observations from a re-analysis of the deposited data

How the results depend on the processing

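No paired analysis was possible because the values come from a single library, and no replicate could be left out. Rescaled to TPM, the levels were 43.9 for *wrm-1*, 39.7 for *hmp-2*, 36.7 for *pop-1* and 17.2 for *sys-1*, by a factor common to all genes. With the longest coding length they were 43.3, 35.9, 60.5 and 17.1 in the same order. *bar-1* stayed within its counting interval under both, and with the longest transcript all 5 genes did. The ratio to *pop-1* with coding lengths was 0.716 for *wrm-1*, 0.593 for *hmp-2*, 0.283 for *sys-1* and 0.0336 for *bar-1*. On fragments with no length it was 1.30 for *wrm-1*, 0.952 for *hmp-2* and 0.524 for *sys-1*. So *wrm-1* and *hmp-2* changed sides of *pop-1* with the length used. Among all genes above 0, the percentile was 77.7 for *wrm-1*, 76.5 for *hmp-2*, 75.5 for *pop-1*, 66.2 for *sys-1* and 41.7 for *bar-1*. Among protein-coding genes that reached 1 FPKM it was 65.0, 63.1, 61.5 and 47.2 for the first 4 of these. At an FPKM of at least 0.1 in place of 1, the counts were 5 in place of 3 early embryo genes, 8 in place of 6 targets, 5 in place of 4 destruction complex genes and 51 in place of 48 pathway genes. The other list counts were equal at 0.1, and all were equal when more than 3 fragments were also required. Depth limits *bar-1* most, with 90 fragments.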

Other observations

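The entries of the deposited table follow an order that the sources used here do not explain. The 5 genes stood in it in the order of their fragments, with *wrm-1* at row 2364, *pop-1* at 2450, *hmp-2* at 3914, *sys-1* at 4407 and *bar-1* at 9037. Compared with the 200 protein-coding genes listed around each, *pop-1* had 0.709 times their median fragments and exceeded 13 of them, and *sys-1* had 0.768 times the median and exceeded 34. *wrm-1* had 0.891 times the median and exceeded 37. *hmp-2* had 1.17 times the median and exceeded 171, and *bar-1* had 1.20 times and exceeded 127. With 100 genes around each the ratios were 0.715 for *pop-1*, 0.769 for *sys-1*, 0.901 for *wrm-1*, 1.18 for *hmp-2* and 1.28 for *bar-1*. This comparison was chosen after seeing the data and describes 1 library.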
